A study of Mus musculus with 15 samples.

Results

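The genes described here are 34 mouse genes of cholesterol and fatty acid synthesis, given by name and matched to the deposited count table through their Ensembl identifiers. All 34 were among the 22165 genes of the table. They were kept in separate arms, a sterol arm of 23 genes (18 enzymes and 5 genes of control and transport) and a fatty acid arm of 11 genes. The study sorted 3 dendritic cell subsets from the thymus and sequenced their mRNA in 15 libraries, with the aim, from its title, of relating LKB1 in dendritic cells to regulatory T cells of the thymus. There were 3 libraries of plasmacytoid dendritic cells (pDC) from KO mice and 3 from WT mice, 3 of type 2 conventional dendritic cells (cDC2) from KO mice and 2 from WT mice, and 2 of type 1 conventional dendritic cells (cDC1) from each genotype. KO mice were Itgax-cre Stk11 fl/fl, in which Cre under the Itgax (CD11c) promoter acts on a floxed Stk11, the gene of the kinase LKB1. That promoter is active in many CD11c-positive cells and in none of these subsets alone. All mice were on a C57BL/6 background and of both sexes. KO and WT mice alike carried a subcutaneous B16 melanoma that secretes Flt3L, injected at 8 to 12 weeks of age, and thymi were taken 9 to 12 days later. Every group therefore describes subsets expanded by Flt3L. The sorts took pDC as Siglec-H+ CD11cint cells, cDC2 as CD11b+ CD11c+ MHCII+ cells and cDC1 as CD8a+ CD11c+ MHCII+ cells. Nothing in the labels ties the libraries of a group to different animals, and p-values then measure only the spread between these libraries, which may be technical.

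Cholesterol is built from acetyl-CoA through the mevalonate pathway to squalene, which is closed to lanosterol and trimmed to cholesterol. Fatty acid synthesis starts from cytosolic acetyl-CoA made by Acly or Acss2, passes through acetyl-CoA carboxylase (Acaca) and fatty acid synthase (Fasn), and goes on to elongases (Elovl) and desaturases (Scd and Fads). The sterol arm is controlled at the endoplasmic reticulum, where Insig proteins hold the escort protein Scap and its cargo, the precursor of SREBP2 (Srebf2), until sterols run low. The released factor binds sterol regulatory elements in promoters, usually beside sites for NF-Y (CCAAT) and Sp1 (GGGCGG). Plasmacytoid cells are known for producing type I interferon, and conventional subsets for presenting antigen to T cells.

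The 5 promoter stretches below belong to the desaturase gene Fads2 and the sterol sensor gene Insig1, which were higher in pDC, to Fasn and Srebf2, which were lower in pDC than in some conventional groups, and to Hmgcs1, the only member whose window held the classical sterol regulatory element. Each is the 250 bases before the RefSeq transcription start, 5′ to 3′ on the gene's strand, in build GRCm38.p6, and capitals mark, on either strand, the NF-Y motif CCAAT, the Sp1 motif GGGCGG, the E-box CACGTG or the sterol regulatory element TCACNCCAC. They lie at chr19:10101504-10101753 on the minus strand (Fads2), chr5:28071162-28071411 on the plus strand (Insig1), chr11:120824548-120824797 on the minus strand (Fasn), chr15:82147019-82147268 on the plus strand (Srebf2) and chr13:119690101-119690350 on the plus strand (Hmgcs1).
Fads2: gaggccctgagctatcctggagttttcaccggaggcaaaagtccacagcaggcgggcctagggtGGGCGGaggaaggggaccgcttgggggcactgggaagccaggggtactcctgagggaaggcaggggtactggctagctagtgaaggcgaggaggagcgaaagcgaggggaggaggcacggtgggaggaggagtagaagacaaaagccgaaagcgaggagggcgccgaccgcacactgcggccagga
Insig1: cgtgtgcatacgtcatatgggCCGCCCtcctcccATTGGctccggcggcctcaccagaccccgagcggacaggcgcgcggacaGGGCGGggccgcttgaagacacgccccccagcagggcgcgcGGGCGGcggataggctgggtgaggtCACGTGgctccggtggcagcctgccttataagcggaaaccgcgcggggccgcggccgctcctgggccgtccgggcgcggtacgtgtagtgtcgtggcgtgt
Fasn: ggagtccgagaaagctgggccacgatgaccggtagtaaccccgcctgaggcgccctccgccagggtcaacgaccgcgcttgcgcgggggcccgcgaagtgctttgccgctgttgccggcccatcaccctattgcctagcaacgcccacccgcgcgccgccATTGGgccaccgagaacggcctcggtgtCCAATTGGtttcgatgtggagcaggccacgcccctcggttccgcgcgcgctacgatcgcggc
Srebf2: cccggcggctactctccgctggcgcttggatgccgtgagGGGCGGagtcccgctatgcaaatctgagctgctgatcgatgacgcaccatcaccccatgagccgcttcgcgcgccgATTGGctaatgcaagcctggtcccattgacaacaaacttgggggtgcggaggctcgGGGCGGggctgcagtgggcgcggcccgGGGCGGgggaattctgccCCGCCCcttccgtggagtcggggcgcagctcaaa
Hmgcs1: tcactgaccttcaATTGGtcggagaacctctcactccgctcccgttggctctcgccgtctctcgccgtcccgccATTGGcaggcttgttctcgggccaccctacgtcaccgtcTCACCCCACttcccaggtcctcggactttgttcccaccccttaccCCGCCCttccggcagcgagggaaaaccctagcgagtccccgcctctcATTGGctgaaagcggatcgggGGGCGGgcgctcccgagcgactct

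Fads2 held 1 GGGCGG and no CCAAT, and Fasn held 3 CCAAT matches, a pair of which overlap in CCAATTGG, and no GGGCGG. Insig1 held 3 GGGCGG, 1 CCAAT and 1 CACGTG, the palindromic E-box that SREBP and other basic helix-loop-helix proteins can bind. RefSeq windows, from 250 bases before to 50 after the start, were found for 27 of the 34 members. CCAAT was in 22 of the 27, in 17 of 19 sterol and 5 of 8 fatty acid genes, against 41.1% of 27025 genes with a window. GGGCGG was in 22 of the 27, in 18 of 19 sterol and 4 of 8 fatty acid genes, against 38.2% of all genes. CACGTG was in 6 of the 27 (Dhcr7, Elovl5, Hsd17b7, Insig1, Sc5d and Scap), against 8.09%. TCACNCCAC was in 1 of the 27, Hmgcs1, against 1.44%. These are matches of letters, searched on both strands, and say nothing of binding in these cells.

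The libraries held 3928164 to 12142712 counts of 3′ tags, and levels are given as CPM, a library's counts for a gene divided by its TMM-scaled total, a unit that allows comparison of a gene between libraries but not of genes with each other. The subset marker lists include genes of antigens used in the sorts, Siglech for pDC, Itgam (CD11b) for cDC2 and Cd8a for cDC1. Of the subset markers, 9 of 9 for pDC were higher in pDC than in each conventional subset of the same genotype. Of 7 for cDC2, 5 were higher in cDC2 WT than in cDC1 WT, and 3 in cDC2 KO than in cDC1 KO. Of 10 for cDC1, 5 were lower in cDC2 than in cDC1 in each genotype, and 8 lower in pDC WT than in cDC1 WT. The lists did not part pDC cleanly from the conventional subsets. Of the cDC2 markers, 4 were higher in pDC WT than in cDC1 WT. Against cDC2 WT, pDC WT had 1 cDC2 marker higher and 2 lower, and 2 cDC1 markers higher and 6 lower. Against cDC2 KO, pDC KO had 1 cDC2 marker higher and 4 lower, and 3 cDC1 markers higher and 6 lower. Against cDC1 KO, pDC KO had 1 cDC1 marker higher and 7 lower, and 3 cDC2 markers higher. The cDC1 marker sums were 6995 to 9575 CPM in pDC KO and overlapped cDC1 KO, at 6949 to 8161 CPM. In WT mice they were 7079 to 8548 CPM in pDC and 10310 to 10940 CPM in cDC1. Both cDC2 WT libraries stood apart from the other conventional libraries. Thinning to the smallest library left them 10840 and 11359 genes with a count. The cDC2 KO libraries held 12430 to 12760 and the cDC1 libraries 12548 to 12642. Ribosomal protein genes took 4.16 to 4.17% of counts, compared with 5.21 to 6.11% in cDC2 KO and 6.28 to 7.10% in cDC1. Each comparison with cDC2 WT rests on these libraries. The pDC libraries held 10846 to 11225 genes, near cDC2 WT, and 2.80 to 5.48% ribosomal protein counts. The part of these measures in the differences of pDC from cDC1 and cDC2 KO was not tested. Stk11 was at 18.4 to 43.5 CPM over the KO libraries and at 34.2 to 66.8 CPM over the WT libraries, with an average log2 difference (KO minus WT) of −0.49 ± 0.19 (SE; adjusted p = 0.387 edgeR quasi-likelihood, Benjamini-Hochberg). Because no label says which exons are floxed, tags from the 3′ end of Stk11 may come from outside the deletion and check nothing. In sorted cells read in bulk, fewer cells of a type and less RNA per cell cannot be told apart.

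Of the 34 members, 33 had enough counts to be tested among 11746 genes. The exception was Me1, the cytosolic malic enzyme that supplies NADPH, with 9 counts in all 15 libraries together and 0 in every pDC and cDC2 WT library. A member is said to have passed the test, or to be higher or lower, only where its adjusted p over all tested genes was under 0.05. The sterol arm took 0.0596 to 0.0731% of counts in pDC KO, 0.0421 to 0.0684% in pDC WT, 0.0452 to 0.04998% in cDC2 KO, 0.0323 to 0.0349% in cDC2 WT, 0.0463 to 0.0474% in cDC1 KO and 0.0439 to 0.0526% in cDC1 WT. The cDC2 WT libraries lay below every other library on this measure. The fatty acid arm took 0.0302 to 0.0411% in pDC KO, 0.0234 to 0.0376% in pDC WT, 0.0221 to 0.0255% in cDC2 KO, 0.0183 to 0.0244% in cDC2 WT, 0.0253 to 0.0262% in cDC1 KO and 0.0268 to 0.0297% in cDC1 WT. All pDC KO libraries lay above all conventional libraries for this summed share, which the most abundant genes of the arm dominate, while pDC WT overlapped them. On the mean over the arm's tested genes of log2 CPM, centred on each gene's own mean, pDC KO was at −0.155, −0.128 and 0.223 and overlapped the conventional libraries, at −0.428 to 0.302.

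**Figure D1:**
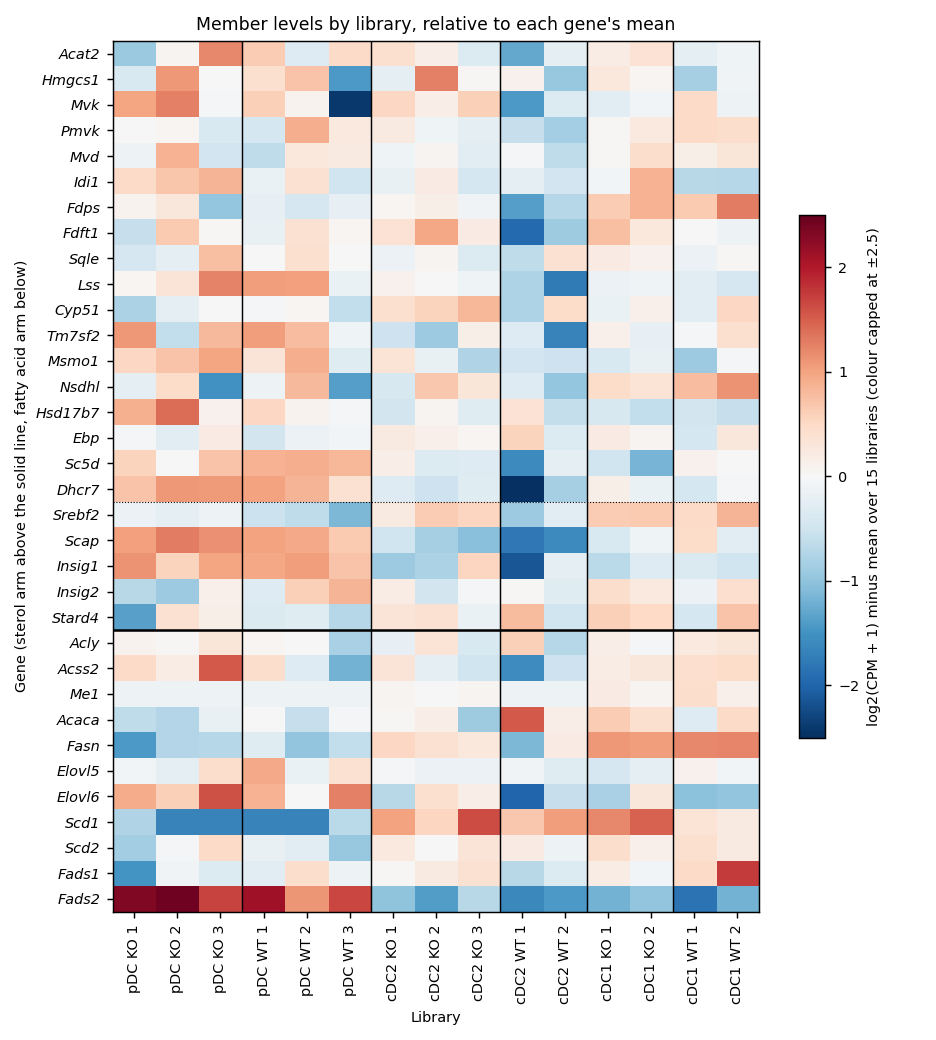
Level of each of the 34 members (rows) in each of the 15 libraries (columns), as log2(CPM + 1) minus the gene's mean over the libraries, with red above and blue below that mean. The solid line parts the sterol arm from the fatty acid arm. Fads2, at the foot, is red in all 6 pDC libraries and blue in all 9 conventional ones, and most sterol genes are blue in the cDC2 WT libraries.

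The question put first to these genes was how the subsets differ. In KO mice, 5 of 33 members were higher and 2 lower in pDC than in cDC1, where 21.5% of all genes passed (9.08% as higher, 12.4% as lower). There, 4 were higher and 2 lower in pDC than in cDC2, where 25.9% of all genes passed (10.9% as higher, 14.9% as lower). In WT mice, 3 were higher and 3 lower in pDC than in cDC1, where 27.7% of all genes passed (12.8% as higher, 14.8% as lower). Against cDC2, 7 were higher and 1 lower in pDC WT, where 23.6% of all genes passed (11.4% as higher, 12.2% as lower). The share of members that passed in either direction was near or below that of all genes in each of the 4 comparisons. By direction the shares lay further apart, most of all in pDC WT against cDC2 WT, which was not tested. What follows describes single genes. The comparisons of pDC with cDC2 and with cDC1 share the pDC libraries of a genotype, while KO and WT comparisons share none. All were fitted together over the 15 libraries and share each gene's estimate of the spread. The calls of KO and WT mice are therefore not independent. Of pDC against cDC1, 27 of 33 members had the same sign in both genotypes and 3 passed in both (Insig1, Fasn and Fads2). Of pDC against cDC2, 25 of 33 had the same sign and 4 passed in both (Dhcr7, Scap, Scd1 and Fads2). The shares of all tested genes with the same sign or passing in both were not counted, so these counts show nothing particular to the members. A list of 26 cell cycle genes was also lower in pDC, with 19 to 23 of them passing in the 4 comparisons and summed levels of 420 to 503 CPM in pDC KO and 352 to 422 CPM in pDC WT, against 1209 to 3230 CPM in the conventional libraries. Of 10 thymocyte and T cell markers, 1 to 4 were higher and 0 to 1 lower in pDC, with sums of 289 to 317 CPM in pDC KO and 312 to 408 CPM in pDC WT, against 68.2 to 187 CPM in the conventional libraries, where Ptcra was at 0 in cDC2 WT and cDC1 KO. Of 7 macrophage markers, 6 of them tested, 5 were lower in pDC KO than in cDC2 KO, with sums of 3.50 to 8.61 CPM against 59.3 to 67.1 CPM, and Adgre1 and Vsig4 were at 0 in pDC KO. In pDC WT 4 were lower than in cDC2 WT, with sums of 9.07 to 11.6 CPM against 82.3 to 112 CPM, and Vsig4 was at 0 in both groups. The part of cycling cells and of thymocyte and macrophage RNA in the member differences was not tested.

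**Figure D2:**
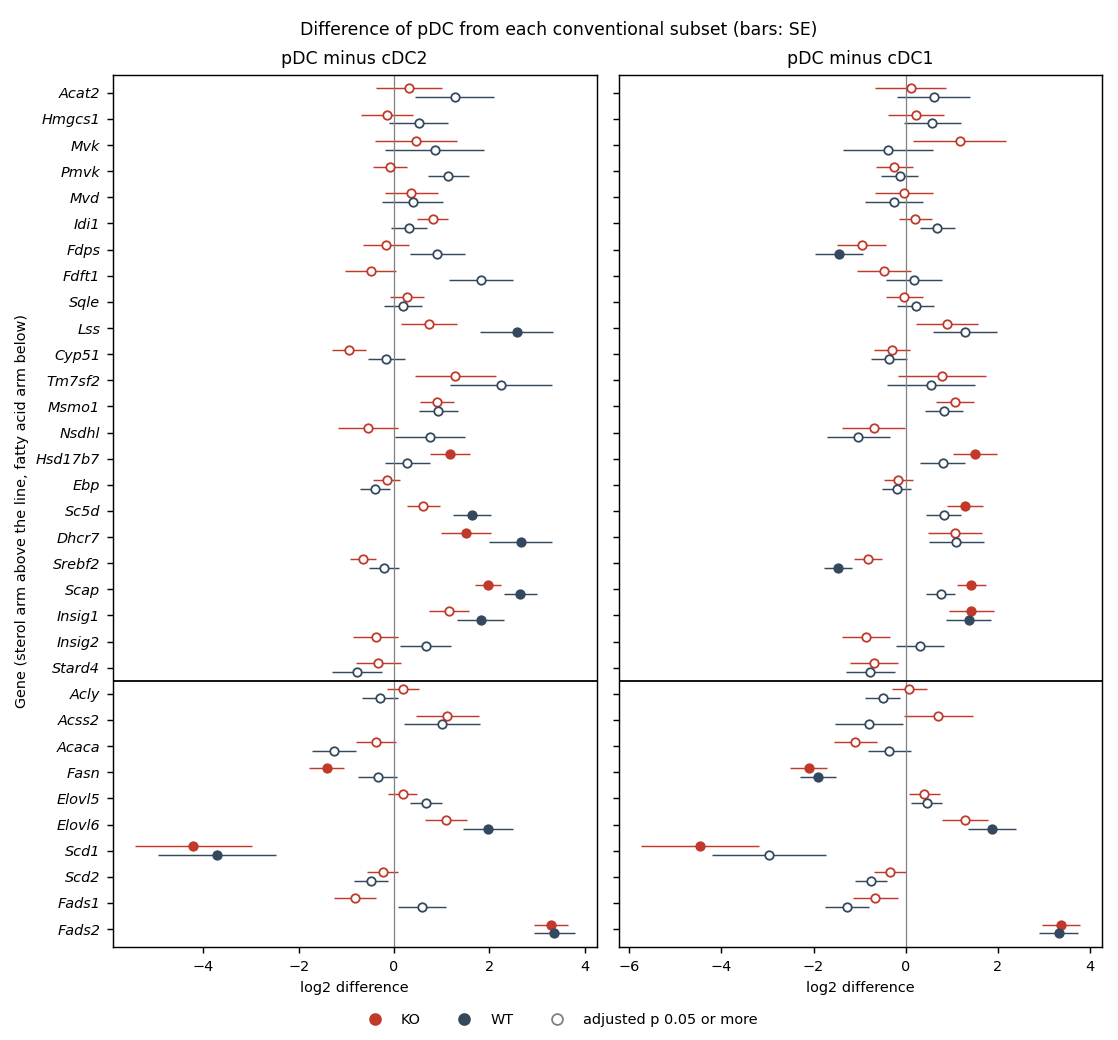
Fitted log2 difference of pDC from cDC2 (left) and from cDC1 (right) for the 33 tested members, in KO (red) and WT (dark) libraries, with bars of 1 SE and filled points where the adjusted p was under 0.05. Fads2 lies at 3.30 to 3.38 in all 4 comparisons, and Scd1 at −2.97 to −4.48.

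Fads2, the delta-6 desaturase that opens the synthesis of long polyunsaturated fatty acids, showed the widest difference among the members that were higher in pDC. Its level was 117, 127 and 75.5 CPM in pDC KO and 103, 50.0 and 74.9 CPM in pDC WT, against 10.8, 8.06 and 13.7 CPM in cDC2 KO, 6.80 and 7.83 CPM in cDC2 WT, 9.55 and 10.9 CPM in cDC1 KO, and 5.63 and 9.47 CPM in cDC1 WT. The lowest pDC library was above the highest conventional library, with no overlap in either genotype. In KO mice it averaged 106 ± 27.3 CPM in pDC, against 10.9 ± 2.80 CPM in cDC2 (SD, n = 3 each), a 9.85-fold difference (log2 3.30 ± 0.35 SE; adjusted p = 1.47e-06, edgeR quasi-likelihood). In WT mice it averaged 76.0 ± 26.5 CPM in pDC (SD, n = 3), against 7.31 ± 0.731 CPM in cDC2 (SD, n = 2), a 10.3-fold difference (log2 3.37 ± 0.42; adjusted p = 1.58e-05, edgeR). Against cDC1 the folds were 10.4 in KO mice (adjusted p = 1.14e-05, edgeR) and 9.97 in WT mice (adjusted p = 1.51e-05, edgeR). Fads2 passed under all alternative settings run in these 4 comparisons. It lies on chromosome 19 at chr19:10062765-10101746 on the minus strand, near Fads1 at chr19:10182888-10196877.

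The neighbouring desaturase Fads1, which acts further down the same polyunsaturated route, did not share this pattern. It was at 3.30, 10.4 and 8.58 CPM in pDC KO and 8.98, 15.5 and 10.1 CPM in pDC WT, against 11.4, 13.2 and 14.96 CPM in cDC2 KO, 6.56 and 8.59 CPM in cDC2 WT, 12.8 and 10.7 CPM in cDC1 KO and 15.9 and 39.9 CPM in cDC1 WT. Its log2 differences of pDC from the conventional groups were −0.82 ± 0.44 (cDC2 KO), 0.60 ± 0.51 (cDC2 WT), −0.66 ± 0.49 (cDC1 KO) and −1.28 ± 0.48 (cDC1 WT), none of which passed. The high value of cDC1 WT came largely from replicate 2.

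Elovl6, which elongates palmitate to stearate, was at 59.5, 47.6 and 95.1 CPM in pDC KO and 57.0, 31.1 and 75.7 CPM in pDC WT, against 18.7, 40.9 and 35.0 CPM in cDC2 KO, 7.04 and 20.3 CPM in cDC2 WT, 17.3 and 38.1 CPM in cDC1 KO, and 14.8 and 15.1 CPM in cDC1 WT. Within each genotype all pDC libraries were above all conventional libraries. It passed in WT mice, at 3.93-fold over cDC2 (log2 1.97 ± 0.53; adjusted p = 0.0110, edgeR) and 3.65-fold over cDC1 (log2 1.87 ± 0.53; adjusted p = 0.0135, edgeR). In KO mice its log2 differences of 1.09 ± 0.44 from cDC2 and 1.28 ± 0.50 from cDC1 had adjusted p of 0.0746 and 0.0789 (edgeR). The WT difference from cDC2 was 1.43 and no longer passed without cDC2 WT replicate 1 (adjusted p = 0.119, edgeR), was 1.82 and did not pass with limma voom (adjusted p = 0.0918), and was 2.96 without cDC2 WT replicate 2. The WT difference from cDC1 no longer passed without either cDC1 WT library (adjusted p of 0.0818 and 0.0942, edgeR).

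Fasn, which makes palmitate, was lower in pDC. It was at 5.85, 10.3 and 10.3 CPM in pDC KO and 14.2, 8.38 and 11.1 CPM in pDC WT, against 25.5, 23.3 and 21.5 CPM in cDC2 KO, 7.53 and 20.6 CPM in cDC2 WT, 38.5 and 37.6 CPM in cDC1 KO, and 41.7 and 42.2 CPM in cDC1 WT. All 6 pDC libraries were below the 4 cDC1 libraries and below the 3 cDC2 KO libraries, but overlapped cDC2 WT. In KO mice Fasn was 4.31-fold lower than in cDC1 (log2 −2.11 ± 0.40; adjusted p = 0.000833, edgeR) and 2.66-fold lower than in cDC2 (log2 −1.41 ± 0.37; adjusted p = 0.00846, edgeR). In WT mice it was 3.73-fold lower than in cDC1 (log2 −1.90 ± 0.40; adjusted p = 0.00156, edgeR), and its log2 difference from cDC2 was −0.34 ± 0.40 (adjusted p = 0.591, edgeR). The 3 differences that passed did so under all alternative settings that could be run.

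Scd1, a stearoyl-CoA desaturase that makes monounsaturated fatty acids, was near 0 in pDC. Among pDC KO libraries it was at 0.900, 0 and 0 CPM, and among pDC WT libraries at 0, 0 and 1.02 CPM, against 5.42, 3.67 and 8.86 CPM in cDC2 KO, 4.13 and 5.57 CPM in cDC2 WT, 6.41 and 7.88 CPM in cDC1 KO and 3.05 and 2.73 CPM in cDC1 WT. All 6 counts of the pDC KO group were in replicate 1 and all 9 counts of the pDC WT group in replicate 3, so the groups did not overlap but rest on few counts. A count of 0 in the other pDC libraries allows up to 3 counts, or 0.387 to 0.525 CPM, for counting error only. The fitted log2 differences were −4.48 ± 1.28 from cDC1 KO (adjusted p = 0.0176, edgeR), −4.22 ± 1.23 from cDC2 KO (adjusted p = 0.0167, edgeR), −3.72 ± 1.24 from cDC2 WT (adjusted p = 0.0369, edgeR) and −2.97 ± 1.24 from cDC1 WT (adjusted p = 0.0852, edgeR).

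The Scd1 calls depended on single libraries. From cDC1 KO the difference was −4.62 to −3.89 without cDC1 KO replicate 1 or 2 or pDC KO replicate 2, and from cDC2 KO it was −3.82 to −3.63 without cDC2 KO replicate 3 or pDC KO replicate 2 or 3. From cDC2 WT it was −3.90 to −3.17 without any 1 of the cDC2 KO, cDC2 WT or cDC1 KO libraries or pDC WT replicate 1 or 2. None of these passed (adjusted p of 0.0501 to 0.109, edgeR), and the difference from cDC2 WT was −3.78 and did not pass with only its groups in the fit (adjusted p = 0.195, edgeR). Without the pDC library that holds all its group's counts, pDC KO replicate 1 or pDC WT replicate 3, the fitted values were −8.66, −8.40 and −8.11, which depend on the fit's handling of zeros. Its close paralogue Scd2 was at 26.2 to 71.8 CPM in all libraries, with log2 differences of −0.24 to −0.75 between pDC and the conventional groups, none of which passed.

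**Figure D3:**
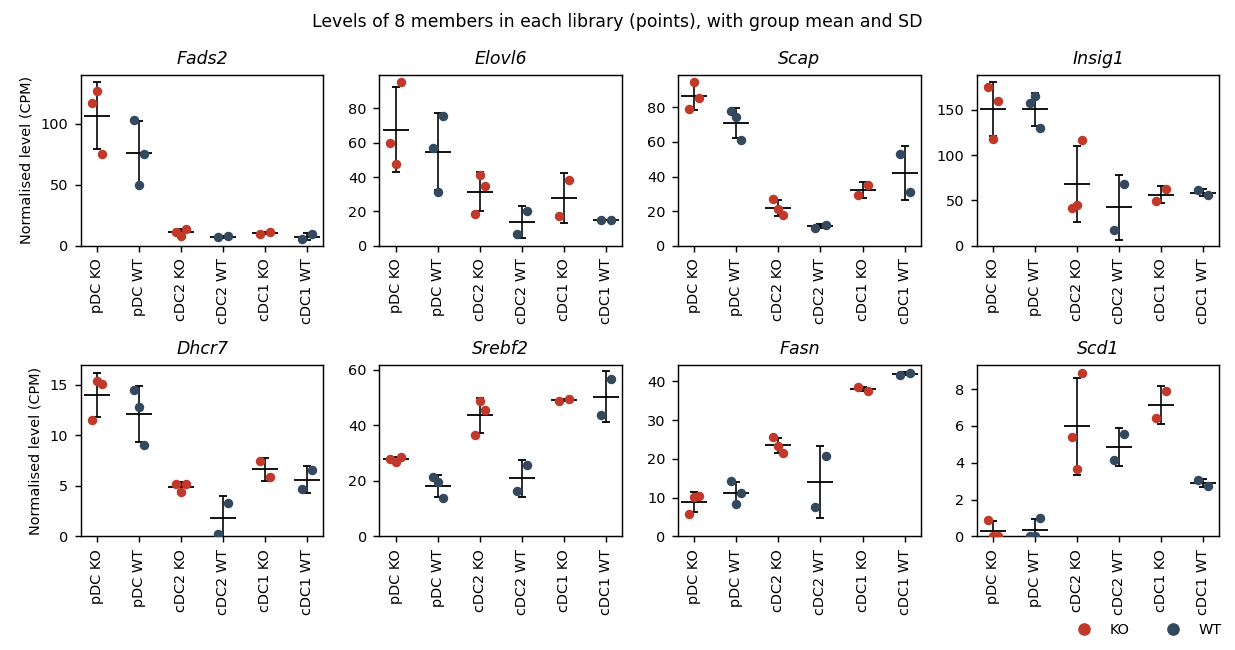
Levels in CPM (vertical axes, from 0) of 8 members in each library, with KO libraries in red and WT libraries dark, and black lines for the group mean and SD. For Fads2, Elovl6, Scap, Insig1 and Dhcr7 the pDC libraries of a genotype lie above its conventional libraries, and Scd1 lies near 0 in pDC.

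Among the genes that control the sterol arm, the escort Scap and the sensor Insig1 were higher in pDC, and the factor Srebf2 was lower in pDC WT than in cDC1 WT. Scap, which carries SREBP precursors from the endoplasmic reticulum to the Golgi, was at 78.9, 94.7 and 85.6 CPM in pDC KO and 77.6, 74.4 and 61.1 CPM in pDC WT, against 27.0, 21.0 and 18.01 CPM in cDC2 KO, 10.4 and 12.1 CPM in cDC2 WT, 29.0 and 35.3 CPM in cDC1 KO, and 53.0 and 31.1 CPM in cDC1 WT. All pDC libraries were above all conventional ones. Over cDC2 the fold was 3.93 in KO mice (log2 1.97 ± 0.28; adjusted p = 3.6e-05, edgeR) and 6.29 in WT mice (log2 2.65 ± 0.34; adjusted p = 1.94e-05, edgeR), and both passed under all alternative settings that could be run. Over cDC1 it was 2.69 in KO mice (log2 1.43 ± 0.32; adjusted p = 0.00303, edgeR), and 1.29 on the log2 scale without cDC1 KO replicate 1, which did not pass (adjusted p = 0.0636, edgeR). In WT mice the log2 difference from cDC1 was 0.76 ± 0.31 (adjusted p = 0.0755, edgeR).

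Insig1, the sterol-regulated retention protein, was at 175, 118 and 159 CPM in pDC KO and 157, 165 and 130 CPM in pDC WT, against 42.1, 45.4 and 116 CPM in cDC2 KO, 17.2 and 67.6 CPM in cDC2 WT, 49.5 and 63.1 CPM in cDC1 KO, and 61.4 and 55.7 CPM in cDC1 WT. The pDC libraries were above all others, with cDC2 KO replicate 3 close below the lowest of them. It was 2.68-fold higher than in cDC1 in KO mice (log2 1.42 ± 0.49; adjusted p = 0.0450, edgeR), 2.57-fold higher than in cDC1 in WT mice (log2 1.36 ± 0.49; adjusted p = 0.0452, edgeR) and 3.53-fold higher than in cDC2 in WT mice (log2 1.82 ± 0.50; adjusted p = 0.0130, edgeR). The difference from cDC2 in KO mice was 1.15 ± 0.42 (adjusted p = 0.0517, edgeR).

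The calls on Insig1 were close to the threshold. In KO mice the difference from cDC1 was 1.25 to 1.60 and did not pass without any 1 of the cDC1 KO, cDC1 WT or pDC KO libraries or pDC WT replicate 1 or 2. In WT mice it was 1.29 to 1.48 and did not pass without any 1 of the cDC1 KO, cDC1 WT or pDC WT libraries or pDC KO replicate 2 or 3, nor with scaling by total counts. The WT difference from cDC2 was 1.16 and did not pass without cDC2 WT replicate 1 (adjusted p = 0.129, edgeR), and was 3.13 without cDC2 WT replicate 2. Its paralogue Insig2 was at 3.75 to 14.96 CPM and passed in none of the 13 comparisons.

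Srebf2 was at 28.0, 26.7 and 28.5 CPM in pDC KO and 21.2, 19.7 and 13.7 CPM in pDC WT, against 36.7, 48.8 and 45.6 CPM in cDC2 KO, 16.3 and 25.6 CPM in cDC2 WT, 48.9 and 49.4 CPM in cDC1 KO, and 43.9 and 56.8 CPM in cDC1 WT. Every pDC library was below every cDC1 library. It was 2.76-fold lower in pDC WT than in cDC1 WT (log2 −1.47 ± 0.31; adjusted p = 0.00164, edgeR), under all alternative settings run. In KO mice the log2 differences were −0.83 ± 0.31 from cDC1 (adjusted p = 0.0627, edgeR) and −0.65 ± 0.28 from cDC2 (adjusted p = 0.0933, edgeR). Stard4, a sterol transfer protein, was at 4.65 to 24.0 CPM and passed in none of the comparisons.

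Of the 18 sterol enzymes, 5 differed between pDC and a conventional subset in at least 1 comparison, with Dhcr7, Sc5d, Hsd17b7 and Lss higher in pDC and Fdps lower in pDC WT than in cDC1 WT. The share of all genes that passed in at least 1 was not counted. In pDC WT against cDC1 WT alone it was 27.7%, so the count shows nothing particular to these enzymes. Dhcr7, the reductase of the last step to cholesterol, was at 11.6, 15.4 and 15.1 CPM in pDC KO and 14.4, 12.8 and 9.07 CPM in pDC WT, against 5.14, 4.39 and 5.23 CPM in cDC2 KO, 0.243 and 3.31 CPM in cDC2 WT, 7.46 and 5.83 CPM in cDC1 KO, and 4.69 and 6.55 CPM in cDC1 WT. All pDC libraries were above all conventional ones. The fold over cDC2 was 2.85 in KO mice (log2 1.51 ± 0.52; adjusted p = 0.0415, edgeR) and 6.31 in WT mice (log2 2.66 ± 0.66; adjusted p = 0.00717, edgeR). The KO difference was 1.44 to 1.56 and did not pass without any 1 of the cDC2 KO, cDC1 KO or cDC1 WT libraries or pDC KO replicate 2 or 3. The WT difference was 1.87 without cDC2 WT replicate 1 and 5.54 without cDC2 WT replicate 2, and passed both times, but was 2.64 and did not pass with only its groups in the fit (adjusted p = 0.0800, edgeR). The log2 differences from cDC1, 1.07 ± 0.59 in KO and 1.10 ± 0.60 in WT mice, did not pass.

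Sc5d, the lathosterol desaturase that acts just before Dhcr7, was at 50.2, 33.9 and 56.4 CPM in pDC KO and 62.6, 64.4 and 61.4 CPM in pDC WT, against 38.1, 26.5 and 27.0 CPM in cDC2 KO, 10.7 and 29.1 CPM in cDC2 WT, 23.7 and 14.6 CPM in cDC1 KO, and 36.8 and 34.2 CPM in cDC1 WT. The pDC WT libraries were above all conventional ones, while pDC KO overlapped cDC2 KO. It was 2.44-fold higher in pDC than in cDC1 in KO mice (log2 1.29 ± 0.40; adjusted p = 0.0256, edgeR) and 3.13-fold higher than in cDC2 in WT mice (log2 1.64 ± 0.40; adjusted p = 0.00610, edgeR). The KO difference was 0.98 to 1.68 and did not pass without cDC1 KO replicate 1 or 2 or pDC KO replicate 1 or 3. The WT difference was 1.12 and did not pass without cDC2 WT replicate 1 (adjusted p = 0.0778, edgeR), and was 2.56 without cDC2 WT replicate 2.

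Hsd17b7, the ketosteroid reductase of sterol demethylation, was at 19.9, 28.6 and 11.2 CPM in pDC KO, against 7.28, 10.9 and 8.13 CPM in cDC2 KO and 7.59 and 6.42 CPM in cDC1 KO. The lowest pDC KO library was just above the highest cDC2 KO library. It was 2.84-fold higher in pDC KO than in cDC1 KO (log2 1.51 ± 0.48; adjusted p = 0.0327, edgeR) and 2.26-fold higher than in cDC2 KO (log2 1.18 ± 0.41; adjusted p = 0.0439, edgeR). The difference from cDC1 KO was 1.15 to 1.63 and did not pass without cDC1 KO replicate 1 or 2 or pDC KO replicate 1 or 2. The difference from cDC2 KO was 0.82 to 1.38 and did not pass without any 1 of the cDC2 KO, cDC1 KO or cDC1 WT libraries or pDC KO replicate 1 or 2, nor with scaling by total counts or without a filter on low counts. In WT mice it was at 15.2, 11.1 and 9.86 CPM in pDC, against 13.6 and 6.48 CPM in cDC2 and 7.27 and 6.55 CPM in cDC1, and passed in neither comparison.

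Lss, which closes oxidosqualene to lanosterol, was at 10.3, 10.1 and 3.85 CPM in pDC WT, against 2.19 and 0.603 CPM in cDC2 WT, a 5.99-fold difference with no overlap (log2 2.58 ± 0.77; adjusted p = 0.0208, edgeR). It was 1.88 and did not pass without cDC2 WT replicate 2 (adjusted p = 0.159, edgeR), and 3.71 without cDC2 WT replicate 1. With limma voom or with only its groups in the fit it was 2.52 to 2.90 and did not pass (adjusted p of 0.0614 to 0.120). Fdps, which makes farnesyl diphosphate for sterols and for protein prenylation, was at 5.08, 4.26 and 5.10 CPM in pDC WT, against 10.1 and 16.2 CPM in cDC1 WT, with no overlap. The log2 difference of −1.45 ± 0.53 had an adjusted p of 0.0495 (edgeR), and it was −1.73 to −1.07 and did not pass without any 1 of the cDC2 KO, cDC1 KO, cDC1 WT or pDC WT libraries. Nor did it pass with RLE scaling, without a filter, with offsets for transcript length and GC content or with only its groups in the fit. Against cDC2 WT, at 1.70 and 3.31 CPM, all pDC WT libraries were higher, by 0.91 ± 0.58 on the log2 scale (adjusted p = 0.282, edgeR), which did not pass. A Fdps read may also be counted to the overlapping gene model Gm43738 on the same strand.

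The other 13 sterol enzymes passed in no comparison of subsets. Hmgcs1, the cytosolic HMG-CoA synthase, was at 16.2, 46.2 and 21.0 CPM in pDC KO and 28.5, 35.4 and 7.25 CPM in pDC WT, against 10.5 to 52.6 CPM in the conventional libraries. Its log2 differences of pDC from the conventional groups were −0.15 to 0.58. Sqle, the squalene epoxidase, was at 14.8 to 40.6 CPM, with differences of −0.03 to 0.27. These spreads within groups were as wide as the gaps between them. Ebp, the sterol isomerase, stayed between 40.5 and 82.5 CPM, and Msmo1, the methylsterol monooxygenase, had pDC differences of 0.82 to 1.07 that did not pass. Of the mevalonate enzymes, Acat2 (thiolase) ranged over 0.971 to 9.98 CPM, Mvk (mevalonate kinase) over 0 to 11.7 CPM, Pmvk (phosphomevalonate kinase) over 7.23 to 26.8 CPM and Mvd (the decarboxylase) over 2.86 to 9.997 CPM. Of the lanosterol-trimming enzymes, Cyp51 (the demethylase) ranged over 17.7 to 56.05 CPM, Nsdhl (a sterol dehydrogenase) over 1.75 to 16.2 CPM and Tm7sf2 (a sterol reductase) over 0.151 to 6.75 CPM. Tm7sf2 overlaps Vps51 on the same strand, so tags of the pair may be mixed. The remaining enzymes, Idi1 and Fdft1, are described with the genotype comparisons. In the fatty acid arm, Acly (21.8 to 59.5 CPM), Acss2 (0.728 to 13.8 CPM), Acaca (6.97 to 41.5 CPM) and the elongase Elovl5 (31.4 to 82.7 CPM) passed in none of these comparisons either.

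In pDC KO minus cDC2 KO the median log2 difference was 0.31 for the sterol arm and −0.03 for the fatty acid arm, beside −0.08 over all tested genes. In pDC WT minus cDC2 WT it was 0.86 for the sterol arm and 0.15 for the fatty acid arm, beside 0.07 over all genes. Against cDC1, the sterol and fatty acid medians were 0.11 and −0.13 in KO mice, beside −0.09 over all genes, and 0.32 and −0.63 in WT mice, beside −0.05. The medians of the fatty acid arm hide a wide range, from −4.48 (Scd1) to 3.38 (Fads2) in pDC KO against cDC1 KO.

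Between the conventional subsets, 5 of 33 members were lower and 0 higher in cDC2 WT than in cDC1 WT (8.73% of all genes passed in either direction, 3.75% as higher and 4.98% as lower), while in KO mice 0 of 33 passed (1.27% of all genes) and 0 had an unadjusted p under 0.05. Scap was 3.72-fold lower in cDC2 WT (10.4 and 12.1 CPM) than in cDC1 WT (53.0 and 31.1 CPM; log2 −1.90 ± 0.35; adjusted p = 0.00424, edgeR). Fdps was 5.13-fold lower (1.70 and 3.31 against 10.1 and 16.2 CPM; adjusted p = 0.0282, edgeR), Srebf2 2.39-fold (adjusted p = 0.0321, edgeR), Fasn 2.94-fold (adjusted p = 0.0376, edgeR) and Fads1 3.67-fold (adjusted p = 0.0424, edgeR). Several marker lists moved with this comparison. Of 7 macrophage markers 3 were higher, with sums of 82.3 to 112 CPM in cDC2 WT, against 10.2 to 12.2 CPM in cDC1 WT. Of 10 thymocyte and T cell markers 3 were lower (68.2 to 126 against 177 to 187 CPM). Of 7 thymic epithelium and stroma markers, 2 of them tested, 2 were higher (128 to 291 against 29.7 to 43.4 CPM). Also higher were 2 of 26 cell cycle genes and 1 of 6 monocyte and neutrophil markers. The part of these lists in the member differences was not tested. For all 5 members the cDC2 WT libraries were below the cDC1 WT libraries without overlap. The same members had log2 differences of −0.80 to 0.17 in KO mice. The difference between the genotypes is that of the KO effects, and no member passed it.

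These 5 calls depended on single libraries and on the cDC2 WT libraries that stood apart. Leaving out 1 library at a time gave 0 to 5 calls, with 0 without cDC1 WT replicate 1 and 1 without cDC2 WT replicate 1 or cDC1 WT replicate 2, and 0 of the 5 passed with only these groups in the fit. Scap was −1.42 without cDC1 WT replicate 1 (adjusted p = 0.0748, edgeR) and passed with any other single library left out. Fdps was −2.95 to −1.98 without any 1 of the cDC2 WT or cDC1 WT libraries, and Srebf2 −1.38 to −0.98 without cDC2 KO replicate 2, cDC2 WT replicate 1 or either cDC1 WT library, and neither passed. Fasn was −1.57 to −1.03 and did not pass without any 1 of the cDC2 KO or cDC1 libraries or cDC2 WT replicate 1, and was −2.48 without cDC2 WT replicate 2. Fads1 was −2.34 to −1.07 and did not pass without any 1 of the 9 conventional libraries.

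The second question was the effect of the genotype within a subset. None of the 33 members passed between KO and WT in pDC (0.0681% of all genes passed), in cDC2 (0.119%), in cDC1 (0.0255%) or on average over the subsets (0.306%), by edgeR's quasi-likelihood test. At an unadjusted p under 0.05 there were 2 of 33 in pDC (10.6% of all genes), 8 in cDC2 (13.3%), 3 in cDC1 (3.83%) and 5 on average (10.2%). DESeq2 called 1 member, Fdft1 in cDC2 (adjusted p = 0.0420), and limma voom called 0. None passed as a difference of the KO effect between subsets (cDC2 minus cDC1, 0.00851% of all genes; pDC minus cDC1 and pDC minus cDC2, 0%). At these depths and group sizes the test recovered 1.49 to 11.9% of simulated 2-fold changes and 52.2 to 73.1% of simulated 4-fold changes in the subsets, so changes of about 2-fold were mostly not detectable. Changes were simulated only in genes with a mean above 5 CPM, and recovery for members below that level was not measured.

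**Figure D4:**
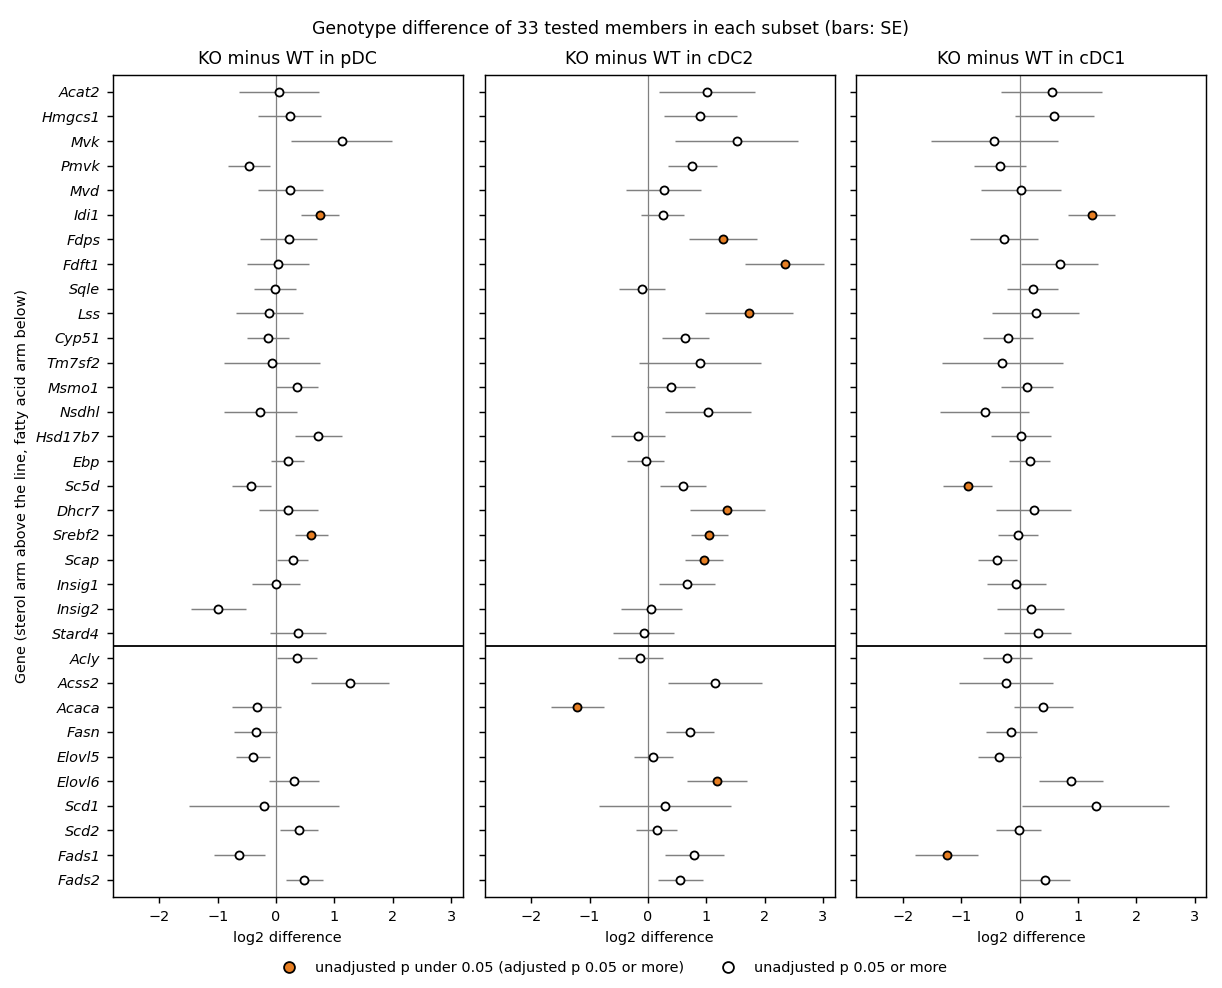
Fitted log2 difference (KO minus WT) of the 33 tested members in pDC, cDC2 and cDC1, with bars of 1 SE and orange points where the unadjusted p was under 0.05. No adjusted p was under 0.05. In cDC2, 19 of 23 sterol genes lie above 0, beside 55.3% of all tested genes, with Fdft1 at 2.34.

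Idi1, the isopentenyl diphosphate isomerase of the mevalonate pathway, had the smallest p in pDC, in cDC1 and on average. It was at 37.6, 44.1 and 49.6 CPM in pDC KO, against 23.8, 35.1 and 18.8 CPM in pDC WT, and at 25.6 and 50.2 CPM in cDC1 KO, against 16.2 and 16.0 CPM in cDC1 WT. In cDC2 the values were 23.7, 31.3 and 19.5 CPM in KO, against 22.6 and 19.1 CPM in WT. KO libraries were above WT libraries without overlap in pDC and cDC1 and overlapped them in cDC2. The log2 differences were 0.76 ± 0.32 in pDC (adjusted p = 0.428, edgeR), 1.23 ± 0.41 in cDC1 (adjusted p = 0.954, edgeR) and 0.75 ± 0.21 on average (adjusted p = 0.205, edgeR), so none passed.

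In cDC2 the smallest p was that of Fdft1, squalene synthase, the first enzyme committed to sterols. It was at 7.56, 12.0 and 6.68 CPM in cDC2 KO, against 0.728 and 2.56 CPM in cDC2 WT, with no overlap (log2 2.34 ± 0.67; adjusted p = 0.154, edgeR). In the other subsets it was at 3.45, 9.44 and 5.78 CPM in pDC KO, against 4.82, 7.61 and 5.89 CPM in pDC WT, and at 10.2 and 7.001 CPM in cDC1 KO, against 5.63 and 5.10 CPM in cDC1 WT. The pDC groups overlapped and the cDC1 groups did not. Srebf2 in cDC2 had a log2 difference of 1.05 ± 0.32 (43.7 ± 6.27 CPM in KO, n = 3, against 20.9 ± 6.60 CPM in WT, n = 2, SD; adjusted p = 0.180, edgeR), with 0.61 ± 0.28 in pDC (adjusted p = 0.455, edgeR) and 0.54 ± 0.18 on average (adjusted p = 0.303, edgeR). Scap in cDC2 had 0.96 ± 0.32 (adjusted p = 0.224, edgeR) and Lss 1.73 ± 0.75 (adjusted p = 0.332, edgeR).

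In cDC2, where none passed, 19 of 23 sterol genes and 8 of 10 fatty acid genes had a log2 difference above 0, against 55.3% of all tested genes. The median log2 difference was 0.76 for the sterol arm and 0.42 for the fatty acid arm, beside 0.09 for all tested genes. In a list of other sterol and SREBP genes, 10 of 19 were above 0 and 9 below, with a median of 0.02. In a list of other fatty acid synthesis genes, 12 of 18 were above 0 and 6 below, with a median of 0.41. With offsets for transcript length and GC content the sterol median was 0.56 and the fatty acid median 0.23, and the median of all genes moved by −0.20. In pDC the sterol and fatty acid medians were 0.20 and 0.05, and in cDC1 0.03 and −0.08, against 0 for all genes in both. Several other measures also separated the cDC2 KO from the cDC2 WT libraries, beside the detected genes and ribosomal protein share given above. The Spearman correlation of centred log2 CPM with transcript length, over genes, was −0.145 to −0.0421 in cDC2 KO, against 0.157 to 0.180 in cDC2 WT. It was −0.0314 to 0.185 in pDC and −0.227 to −0.144 in cDC1. The 7 macrophage markers summed to 59.3 to 67.1 CPM in cDC2 KO, against 82.3 to 112 CPM in cDC2 WT where Vsig4 was at 0, and the 9 pDC markers to 979.5 to 1031 CPM in cDC2 KO where Klk1 was at 0, against 1397 to 1708 CPM in cDC2 WT. No marker of either list passed between these groups, and the part of these measures in the values of the members was not tested. Of the 26 cell cycle genes, 25 were above 0 in KO minus WT in cDC1, 22 in cDC2 and 18 in pDC. That compares with 50.0%, 55.3% and 49.0% of all tested genes, and only Rrm2 in pDC passed. Their sums were 1773 to 2608 CPM in cDC1 KO, against 1209 to 1499 CPM in cDC1 WT, and overlapped in cDC2 and pDC. The part of cycling cells in the genotype values was not tested.

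In the fatty acid arm the members with the smallest p in cDC2 were Acaca and Elovl6. Acaca, the carboxylase that makes malonyl-CoA, was at 14.1, 15.6 and 6.97 CPM in KO, against 41.5 and 15.5 CPM in WT (log2 −1.21 ± 0.46; adjusted p = 0.268, edgeR), with overlap and a single high WT library. Elovl6 was at 18.7, 40.9 and 35.0 CPM in KO, against 7.04 and 20.3 CPM in WT (log2 1.19 ± 0.51; adjusted p = 0.330, edgeR), and at 0.79 ± 0.29 on average (adjusted p = 0.361, edgeR). In cDC1, Fads1 was at 12.8 and 10.7 CPM in KO, against 15.9 and 39.9 CPM in WT (log2 −1.25 ± 0.54; adjusted p = 1, edgeR), and Sc5d at 23.7 and 14.6 CPM, against 36.8 and 34.2 CPM (log2 −0.89 ± 0.42; adjusted p = 1, edgeR). In pDC, Acss2, which makes acetyl-CoA from acetate, was at 6.15, 4.86 and 13.8 CPM in KO, against 5.99, 3.10 and 1.25 CPM in WT (log2 1.26 ± 0.67; adjusted p = 0.524, edgeR), and Fads2 had 0.49 ± 0.32 (adjusted p = 0.629, edgeR). The groups overlapped for Acss2 and for Fads2 in pDC. Across the subsets 9 of 33 members were nominally higher in KO in all 3 (Acat2, Hmgcs1, Mvd, Idi1, Fdft1, Msmo1, Dhcr7, Elovl6 and Fads2) and 0 were lower in all 3, against 13.7% and 11.1% of all tested genes.

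Other genes of these pathways were read from a list of 20 sterol and SREBP genes, 19 of them tested, and a list of 24 fatty acid genes, 18 of them tested. Between KO and WT, 0 of either list passed in any subset. Between pDC and the conventional subsets, 1 to 4 of the 19 were higher and 2 lower in each of the 4 comparisons, and 2 to 3 of the 18 were higher and 2 to 6 lower. Npc1, which exports cholesterol from lysosomes, averaged 968 ± 344 CPM in pDC KO and 1146 ± 557 CPM in pDC WT (SD, n = 3 each), against 119 ± 9.68 CPM in cDC2 KO and 159 ± 4.88 CPM in cDC2 WT, with folds of 8.15 in KO mice (adjusted p = 1.69e-06, edgeR) and 7.22 in WT mice (adjusted p = 2.89e-05, edgeR). Fads3, the third gene of the Fads family, averaged 41.0 ± 7.07 CPM in pDC KO, against 3.57 ± 1.56 CPM in cDC2 KO (SD, n = 3 each), an 11.6-fold difference (adjusted p = 0.000142, edgeR), and it passed in all 4 comparisons. Lower in pDC were Soat1, which esterifies cholesterol, at 81.2 ± 8.49 CPM in pDC KO, against 294 ± 52.7 CPM in cDC2 KO (adjusted p = 4.7e-05, edgeR), and Dgat2, which completes triglycerides, at 0.370 ± 0.641 CPM, against 9.69 ± 4.32 CPM (adjusted p = 0.00194, edgeR). Both passed in all 4 comparisons.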

How the data were processed

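The deposited table holds raw counts of 3′ tags per Ensembl gene, made by the authors with STAR, HTSeq and DESeq2 on mm10, per the submitters' processing notes. No version or role of a tool is given in the sources used here. Per the labels, mRNA was primed with barcoded oligo-dT, pooled and amplified for 12 PCR cycles into strand-specific libraries, with no molecular identifier named. Counts were fitted in R 4.3.3 with edgeR 4.0.16 (filterByExpr, TMM, robust quasi-likelihood test) over all 6 groups and 15 libraries, and p-values were adjusted by Benjamini-Hochberg over 11746 genes in each of 13 comparisons. The fit was tested on simulated data. Totals of 3928164 to 12142712 counts and a common biological coefficient of variation of 0.395 set the precision. Library pairs within a group differed by more than counting noise (chi-square over its degrees of freedom, 27.9 to 101), so none was merged.

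The members and the gene lists were chosen with earlier results of these data known. Every member may be named. Values per library are given for the members with the smallest p in each comparison, and Srebf2, Scap, Insig1, Insig2, Hmgcs1, Sqle, Fasn and Scd2 are named whatever their values. Alternatives were RLE and total-count scaling, DESeq2 1.42.0, limma 3.58.1 voom, other filters, no robust estimation, a block for replicate number, offsets for transcript length and GC content, the groups of a comparison alone, and leaving out each library. Leaving out both cDC2 WT libraries was added after seeing the data. Gene positions are from GENCODE M21 and promoters from RefSeq, both on GRCm38. Lists of B cell, erythroid, adipocyte and melanoma markers summed to at most 20.3, 29.8, 8.64 and 0.581 CPM in any library, and NK cell markers to 25.0 CPM. Monocyte and neutrophil markers summed to 784 to 1448 CPM in pDC, 449 to 1309 in cDC2 and 235 to 470 in cDC1. Lcn2 was at 0 in pDC KO and S100a9 in pDC WT. Thymic epithelium and stroma markers summed to 96.8 to 162, 128 to 291 and 29.7 to 43.4 CPM, with Krt5, Psmb11 and Pdgfra at 0 in pDC. The part of these lists in the member differences was not tested.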

Additional observations from a re-analysis of the deposited data

How the results depend on the processing

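No member passed a genotype comparison, a difference of KO effects or the comparison of cDC2 KO with cDC1 KO under any setting except DESeq2, which called 1 member between cDC2 KO and cDC2 WT. In cDC2 WT against cDC1 WT the 5 calls became 2 with limma voom, 2 with offsets for length and GC content, 2 with the replicate block and those offsets, and 0 with only those groups in the fit. In pDC WT against cDC2 WT the 8 calls became 5 with only those groups. In pDC KO against cDC1 KO the 7 calls became 12 with limma voom. In pDC KO against cDC2 KO the 6 calls became 10 with DESeq2, 10 with the offsets, 10 with the replicate block and offsets, and 10 with only those groups. Leaving out 1 library gave 0 to 5 calls for cDC2 WT against cDC1 WT, 3 to 7 for pDC WT against cDC1 WT, 5 to 9 for pDC WT against cDC2 WT, 2 to 8 for pDC KO against cDC1 KO and 3 to 9 for pDC KO against cDC2 KO. The KO minus WT difference of Scap in cDC1 was −0.72 without cDC1 WT replicate 2 and 0.0382, the reverse sign, without cDC1 WT replicate 1. Leaving out both cDC2 WT libraries gave 7, 8 and 8 calls for pDC WT against cDC1 WT, pDC KO against cDC1 KO and pDC KO against cDC2 KO. The causes of these changes were not tested.

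Replicate numbers recur across groups, but no label ties a number to an animal, litter or day, and the deviations of same-numbered libraries correlated at −0.182 to 0.179, so the numbers were not treated as pairs. With the replicate block the counts were 4 for cDC2 WT against cDC1 WT, 4 for pDC WT against cDC1 WT, 8 for pDC WT against cDC2 WT, 5 for pDC KO against cDC1 KO and 6 for pDC KO against cDC2 KO, and 0 elsewhere. The block ended the calls on Fasn in cDC2 WT against cDC1 WT, on Fdps and Insig1 in pDC WT against cDC1 WT, and on Insig1 and Sc5d in pDC KO against cDC1 KO. In pDC KO against cDC2 KO it ended Dhcr7 and Hsd17b7 and gained Cyp51 and Insig1, with 4 of the 6 calls in common.

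Counts were lowest for Me1, Tm7sf2, Scd1, Acat2, Acss2, Mvk, Lss and Mvd, at 9 to 556 over all 15 libraries together, and 2 libraries in 3 of the 6 groups limit every comparison with them.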
